A study of Mus musculus with 6 samples.

Results

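The 9 genes described here mark the oligodendrocyte lineage, the glia that make myelin in the central nervous system. They were taken by symbol from a table of 55471 genes as 5 genes of oligodendrocyte precursor cells, Cspg4, Pdgfra, Olig1, Olig2 and Sox10, and 4 genes of myelinating oligodendrocytes, Mbp, Mog, Mag and Cnp. They are listed by symbol, and all 9 passed the filter on low values, as did 18664 genes in all. The table came from bulk RNA-seq of YFP-positive, propidium iodide-negative cells sorted by FACS from the subgranular zone (SGZ), where neurons are born throughout life in the hippocampus. There were 3 libraries of NTG;Nestin-YFP mice, labelled wild type, and 3 of 3xTg;Nestin-YFP mice, all of the B6129SF2/J background and taken at postnatal day 35. The 3xTg mouse, a model of Alzheimer disease, carries mutant human APP and tau transgenes and mutant presenilin 1 (PS1). Both groups also carried Nestin-CreERT2 and the ROSA26-EYFP reporter, and both received tamoxifen, with the last dose 10 days before the sort. The Cre is driven by a Nestin promoter and enhancer, so that the gate selects cells that once used these elements and their progeny, not cells of 1 type. NTG mice were kept as a separate colony, so that genotype and colony cannot be told apart. Both sexes were used in the study and the labels give no sex per library. The study calls the libraries biological replicates, but the labels do not say which animals they came from.

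Oligodendrocyte precursor cells persist in the adult brain, divide slowly and give rise to myelinating oligodendrocytes. Cspg4 (the proteoglycan NG2) and Pdgfra (the receptor for PDGF-A, which drives their division) sit on the precursor surface, whereas the transcription factors Olig1, Olig2 and Sox10 are kept as the cells mature. Mbp and Cnp act on the inner face of the myelin membrane, Mag on the surface that touches the axon and Mog on the outermost face. Neither precursor surface gene belongs to this lineage alone, since Cspg4 is also known from pericytes and Pdgfra from fibroblasts.

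The 5 precursor genes as a mean were lower relative to the 4 myelin genes in every 3xTg library than in any NTG library. This balance was not planned and was added after the values of the 9 genes were seen. The ratios of Pdgfra to each myelin gene overlapped between the groups, as did this balance for 12 other precursor and 23 other myelin genes. Of all pairs of tested genes, 27.0% had ratios that did not overlap between the groups. Of the 9 genes only Cspg4 was called on its own. It measured 3584 ± 488 normalised counts (SD, n = 3) in 3xTg against 6689 ± 1948 in NTG. No myelin gene was called. In addition, 1 NTG library, replicate 3, held between 26.5% and 70.1% of the mean level of the other NTG libraries for the 9 genes, and this spread sets how far each single gene can be compared. Fold changes are given throughout as 3xTg over NTG. A gene was called when its limma adjusted p, taken over all tested genes, was under 0.05 and its log2 fold change exceeded 0.5 in size. By this rule 2.80% of the tested genes were called, 1.13% higher and 1.67% lower, and 23.5% had an unadjusted p under 0.05. The share called was 2.84% by edgeR and 7.11% by DESeq2.

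Depth was 32731794 to 42576455 assigned reads for the NTG libraries and 53063475 to 81800375 for the 3xTg libraries, and every member rested on at least 1430 reads in every library. All 3xTg libraries were deeper than all NTG libraries. The deposited values are counts divided by 1 size factor per library, called normalised counts here. Fold changes also moved with the GC content of the transcripts. When the tested genes were split into 5 equal bins by GC content, the median log2 fold change was 0.25 in the lowest bin and -0.20 in the highest. Cspg4, Olig1, Olig2, Sox10 and Mag lay in the highest bin, Cnp in the next (median -0.09), and Pdgfra, Mbp and Mog in the middle bin, where the median was 0.03. Values with this trend removed from each library are given beside the precursor and myelin results. In bulk libraries, fewer cells of a type and less RNA per cell cannot be told apart.

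RefSeq promoter windows (GRCm38.p6, from 250 bases before to 50 after a start site) were matched for 6 of the 9 genes, Cspg4, Pdgfra, Olig2, Mog, Mag and Cnp, and not for Olig1, Sox10 and Mbp. Shown are the window of Cspg4, the called member, at chr9:56864854-56865153 (plus strand), and the 3 windows with a match to the motifs searched, Olig2 at chr16:91225300-91225599 (plus strand), Mag at chr7:30914814-30915113 (minus strand) and Cnp at chr11:100574689-100574988 (plus strand). Capitals mark ACAAAG and ACAATG, core letters bound by SOX proteins, and CAGCTG and CATATG, E-box letters bound by basic helix-loop-helix proteins such as the OLIG factors, on either strand, and no matches overlapped.
Cspg4: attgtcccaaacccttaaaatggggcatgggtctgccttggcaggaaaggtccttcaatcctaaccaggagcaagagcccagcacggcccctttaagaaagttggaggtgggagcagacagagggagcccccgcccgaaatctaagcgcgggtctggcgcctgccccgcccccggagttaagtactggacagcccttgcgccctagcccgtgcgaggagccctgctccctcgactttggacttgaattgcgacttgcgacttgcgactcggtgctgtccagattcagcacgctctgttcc
Olig2: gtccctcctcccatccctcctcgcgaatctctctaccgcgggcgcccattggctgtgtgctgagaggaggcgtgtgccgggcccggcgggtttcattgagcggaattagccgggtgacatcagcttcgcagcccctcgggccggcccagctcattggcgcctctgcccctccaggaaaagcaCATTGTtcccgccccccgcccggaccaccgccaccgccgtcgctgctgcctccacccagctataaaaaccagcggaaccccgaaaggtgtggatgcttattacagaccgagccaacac
Mag: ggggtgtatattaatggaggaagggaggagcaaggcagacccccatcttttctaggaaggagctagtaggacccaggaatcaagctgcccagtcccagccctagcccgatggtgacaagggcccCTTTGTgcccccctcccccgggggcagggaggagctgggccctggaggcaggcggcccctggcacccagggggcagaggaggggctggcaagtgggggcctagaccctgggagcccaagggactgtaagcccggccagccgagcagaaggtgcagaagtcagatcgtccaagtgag
Cnp: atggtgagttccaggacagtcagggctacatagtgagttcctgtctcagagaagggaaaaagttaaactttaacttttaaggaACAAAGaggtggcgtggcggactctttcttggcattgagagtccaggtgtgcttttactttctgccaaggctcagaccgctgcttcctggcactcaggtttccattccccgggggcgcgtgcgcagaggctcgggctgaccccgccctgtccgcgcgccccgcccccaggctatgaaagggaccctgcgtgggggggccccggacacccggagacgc
Mag and Cnp each held 1 match to ACAAAG, the former on the opposite strand, and Olig2 held 1 to ACAATG, also on the opposite strand. Of all 32851 promoter windows, 18.7% held ACAAAG, 12.6% ACAATG, 16.3% CAGCTG and 3.91% CATATG. Cspg4, Pdgfra and Mog had no match to the 4 motifs in this window. The windows of Olig2 and Mag had a GC content of 65.0%, that of Cspg4 60.0% and that of Mog 48.3%, against a median of 52.7% over all windows. A match describes the letters alone and was not tested as a binding site.

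The levels of the members were first compared per kilobase of exon, since longer transcripts collect more reads. Cnp was highest, at 29245 ± 5390 normalised counts per kilobase (SD over 6 libraries), followed by Mag at 13662 ± 2969, Olig1 at 11022 ± 2647, Mbp at 9018 ± 2069 and Mog at 8457 ± 1844. Sox10 at 2561 ± 646 and Olig2 at 1915 ± 485 came next, and Pdgfra at 528 ± 253 and Cspg4 at 431 ± 178 were lowest. Both precursor surface genes thus stood below the transcription factors and below every myelin gene. The ranges over the 6 libraries did not overlap for 3 neighbouring pairs of this order, Cnp over Mag, Mog over Sox10 and Olig2 over Pdgfra. For the other neighbours they overlapped, although Mag lay above Olig1 and Sox10 above Olig2 within each of the 6 libraries. With the longest transcript in place of the whole exon length, Mbp and Olig1 changed places and the other 7 ranks held.

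**Figure D1:**
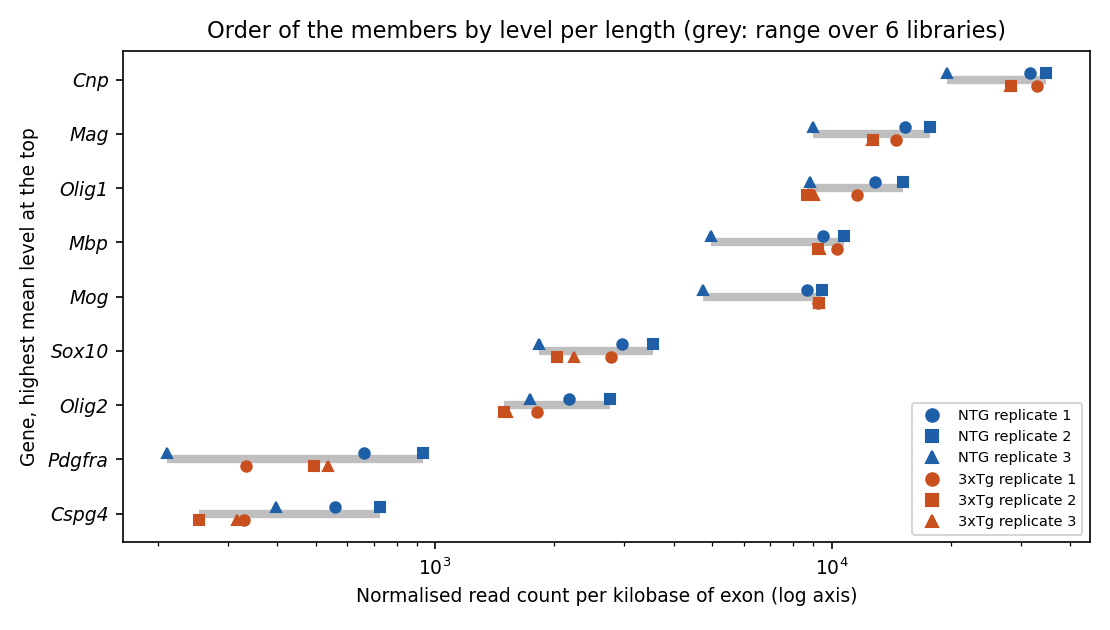
Normalised read count per kilobase of exon (log axis) of the 9 genes, ordered by their mean, with 1 point per library and a grey bar for the range over the 6 libraries. Cnp lies apart at the top, from 19566 to 34703, and Pdgfra and Cspg4 lie at the bottom, from 211 to 930 and from 254 to 725.

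Against all tested genes these were high levels for cells sorted as neural stem and progenitor cells. Per kilobase, Cnp lay above 99.8% of the tested genes, Mag above 99.5%, Olig1 above 99.4%, Mbp above 99.2% and Mog above 99.1%, whereas Cspg4 lay above 72.6% and Pdgfra above 76.7%. The stem cell genes Slc1a3, a glutamate transporter of radial glia and astrocytes, Hopx, a marker of quiescent radial glia-like cells, and Sox2 lay above 99.9%, 99.2% and 98.4%, and Nes, which encodes Nestin, above 48.9%. The astrocyte gene Gja1 lay above 99.7%, and Gfap, listed with the stem cell genes, above 99.3%. The libraries thus held abundant RNA of the oligodendrocyte lineage and of genes of radial glia or astrocytes. These levels do not tell stem cells from astrocytes. The 9 members took between 0.400% (NTG replicate 3) and 0.796% (NTG replicate 2) of all normalised counts, and the 3xTg libraries lay between at 0.622% to 0.655%. Of the markers of Schwann cells, which make myelin in peripheral nerves, Pmp2 was at 0 in every library and Prx measured 65.1 to 119 normalised counts.

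Among the precursor genes, Cspg4 separated the groups. It lies at chr9:56865033-56899870 in GRCm38 and measured 6673, 8646 and 4749 normalised counts in NTG replicates 1 to 3 and 3941, 3028 and 3783 in 3xTg. Every 3xTg library was below every NTG library, with the smallest gap between NTG replicate 3 and 3xTg replicate 1. Of all tested genes, 12.6% showed 3xTg below NTG without overlap. The log2 fold change was -0.87 (SE 0.20, limma adjusted p = 0.0485), and on recovered reads the adjusted p was 0.0386 by edgeR and 4.5e-04 by DESeq2. The exact two-sided permutation p of this gene alone was 0.1, the smallest that 3 against 3 libraries allow. The call rested on single libraries and on the GC trend. It was kept without 3xTg replicate 1 or NTG replicate 3 (limma adjusted p = 0.0337 and 0.00363) and was lost without 3xTg replicate 2, 3xTg replicate 3, NTG replicate 1 or NTG replicate 2 (limma adjusted p = 0.218, 0.147, 0.140 and 0.107), with log2 fold changes from -1.09 to -0.66 over the 6. With the GC trend removed it was -0.63 (limma adjusted p = 0.149) and the groups overlapped.

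Pdgfra, the other surface gene, did not separate the groups as Cspg4 did. It measured 6628, 9325 and 2115 normalised counts in NTG and 3347, 4970 and 5369 in 3xTg, so that NTG replicate 3 was lowest of all and the groups overlapped. Its log2 fold change was -0.18 (SE 0.44, limma adjusted p = 0.830). When each library was left out in turn, it ranged from -0.81 without NTG replicate 3 (limma adjusted p = 0.0712) to 0.26 without NTG replicate 2. Within a library, the ratio of Cspg4 to Pdgfra was 1.01, 0.927 and 2.25 in NTG and 1.18, 0.609 and 0.705 in 3xTg. Pdgfra thus varied the most of the 9 genes within NTG, by 4.41-fold from the lowest to the highest library.

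None of the 3 transcription factors was called. Olig2, which directs cells into the lineage, measured 5496, 7005 and 4381 normalised counts in NTG and 4573, 3774 and 3843 in 3xTg, and the groups overlapped only through 3xTg replicate 1 and NTG replicate 3. Its log2 fold change was -0.45 (SE 0.16, limma adjusted p = 0.146), and it passed without NTG replicate 3 (-0.62, limma adjusted p = 0.0480). Olig1, its neighbour on chromosome 16, measured 27820, 32774 and 19097 in NTG and 24990, 18752 and 19550 in 3xTg (log2 fold change -0.31, SE 0.19, limma adjusted p = 0.357). Olig1 over Olig2 was 4.36 to 5.06 in NTG and 4.97 to 5.46 in 3xTg, with overlapping groups, whereas with the GC trend removed the groups did not overlap and the log2 ratio was 0.19 higher in 3xTg. Sox10, which activates myelin genes and is used throughout the lineage, measured 9042, 10790 and 5569 in NTG and 8464, 6190 and 6822 in 3xTg (log2 fold change -0.20, SE 0.22, limma adjusted p = 0.602). In all, 1 of 5 precursor genes was called, lower, and all 5 had a log2 fold change below 0, with a median of -0.31 against 0.01 over all tested genes. With the GC trend removed this median was -0.22, with Olig2 at -0.22, Olig1 at -0.03, Pdgfra at -0.24 and Sox10 at 0.09. Pdgfra was also above 0 without NTG replicate 2 (0.26), 3xTg replicate 1 (0.03) or NTG replicate 1 (0.01), and Sox10 lay at 0.00 without NTG replicate 2.

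**Figure D2:**
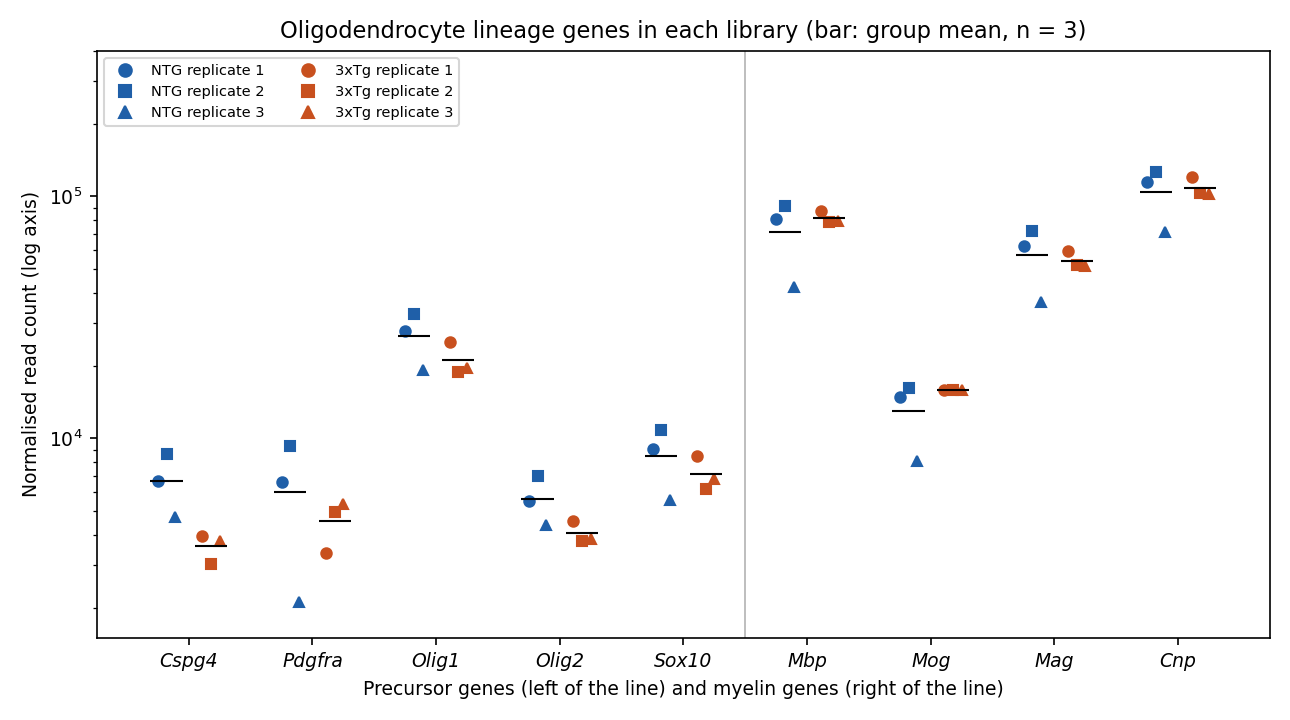
Normalised read counts (log axis) of the 5 precursor and 4 myelin genes, with 1 point per library and a bar for the mean of each group (n = 3). For Cspg4 all 3xTg libraries, 3028 to 3941, lie below all NTG libraries, 4749 to 8646, and NTG replicate 3 is the lowest NTG point for every gene.

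The myelin genes showed no difference between the groups beyond the spread of the libraries. Mbp, which compacts the myelin membrane, measured 80357, 90925 and 42078 normalised counts in NTG and 87255, 78373 and 79272 in 3xTg. Cnp, a phosphodiesterase of the cytoplasmic channels of myelin, measured 115263, 126284 and 71202 in NTG and 120023, 103436 and 102333 in 3xTg. In both, the 3xTg libraries lay close together and NTG replicate 3 stood alone below all others. Mag, an adhesion protein facing the axon, measured 62304, 72250 and 36510 in NTG and 59314, 51915 and 51494 in 3xTg. Mog, a surface protein used as a marker of mature oligodendrocytes, measured 14765, 16163 and 8070 in NTG and 15787, 15878 and 15800 in 3xTg, so that the 3xTg libraries differed by less than 100 counts. The log2 fold changes were 0.27 (SE 0.25) for Mbp, 0.35 (SE 0.22) for Mog, -0.02 (SE 0.22) for Mag and 0.10 (SE 0.21) for Cnp, with limma adjusted p values of 0.534, 0.361, 0.970 and 0.811. None of the 4 was called with any other setting tried, edgeR and DESeq2 included, and none had an unadjusted limma p under 0.05. The sign of Mbp, Mag and Cnp was not fixed, since it turned when NTG replicate 3 was left out (Mbp -0.07, Cnp -0.16) or when the GC trend was removed (Mag 0.19). Reads of Cnp overlap those of Dnajc7 on the other strand along 154 exon bases, and the strand setting of the counting is not given in the sources used here.

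NTG replicate 3 was the lowest NTG library for each of the 9 genes, and the lowest of all 6 libraries for 2 of the 5 precursor genes, Pdgfra and Sox10, and for 4 of the 4 myelin genes. Relative to the mean of the other NTG libraries, it held 62.0% of Cspg4, 26.5% of Pdgfra, 63.0% of Olig1, 70.1% of Olig2 and 56.2% of Sox10. For the myelin genes these shares were 49.1% for Mbp, 52.2% for Mog, 54.3% for Mag and 58.9% for Cnp, whereas the median over all tested genes was 99.4%. Many other lineage genes were also low in this library. It was the lowest of the 6 for 19 of 23 other myelin genes, 6 of 9 genes of committed precursors and 7 of 12 other precursor genes, against 27.9% of all tested genes. Among the exceptions were Sox8 and Hapln2, named after their values were seen, at 102% and 98.3% of the mean of the other NTG libraries. By contrast, its summed pericyte and smooth muscle markers stood at 109% of the mean of the other NTG libraries and its summed neural stem cell markers at 95.8%. Without this library the median log2 fold change was -0.62 for the precursor genes and -0.11 for the myelin genes, and Cspg4 and Olig2 were both called lower, with 1.17% of all tested genes called lower without it.

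**Figure D3:**
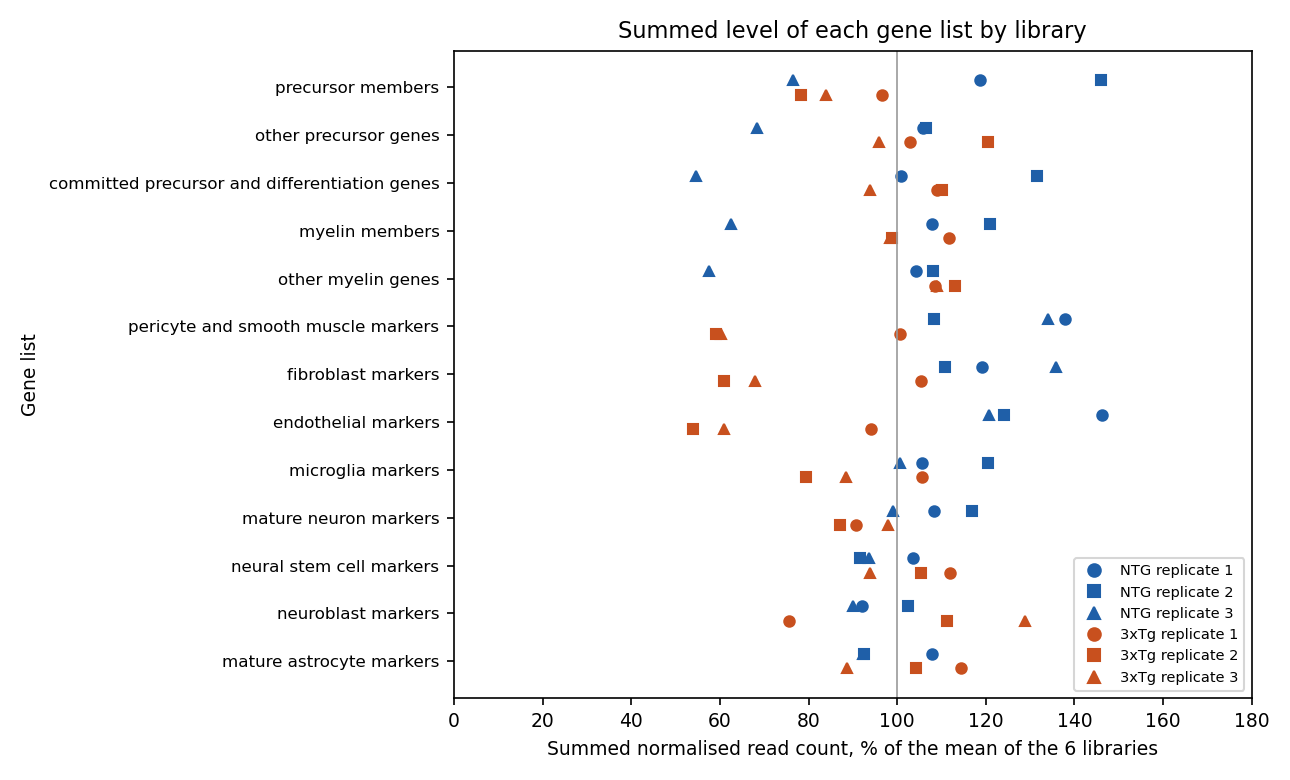
Summed normalised read count of each gene list in each library, as % of the mean of the 6 libraries. NTG replicate 3 lies lowest for the 5 lineage lists, at 54.6% to 76.5%, and 3xTg replicates 2 and 3 lie lowest for the pericyte, fibroblast and endothelial lists, at 53.9% to 67.9%.

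Since NTG replicate 3 was the lowest NTG library for all 9 genes, precursor and myelin genes were next compared within each library. Of the precursor genes, Olig1, Olig2 and Sox10 are kept as the cells mature, so this balance does not tell precursors from mature cells. The mean log2 level of the 5 precursor genes minus that of the 4 myelin genes was -2.58, -2.40 and -2.50 in NTG and -3.08, -3.13 and -2.99 in 3xTg. The groups did not overlap, and NTG replicate 3 lay between the other NTG libraries. The mean difference between the groups was -0.58 on the log2 scale. It was -0.46 with Cspg4 left out and -0.47 with the GC trend removed, and the groups stayed apart in both cases. These values are a description of genes chosen as a list, and no p is given for them.

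Pairs of genes were compared next, on the same values that make the balance. Of the 20 pairs of a precursor and a myelin gene, 16 had a ratio that was lower in every 3xTg library than in every NTG library, among them all pairs of Cspg4, Olig1, Olig2 and Sox10. The 4 pairs with Pdgfra overlapped. Of all pairs of tested genes, 27.0% had ratios that did not overlap between the groups in either direction, and the 20 pairs share their members and are not independent. With the GC trend removed the count was again 16 of 20, against 24.6% of all pairs. Olig2 over Mbp, for instance, was 0.0684, 0.0770 and 0.104 in NTG and 0.0524, 0.0482 and 0.0485 in 3xTg. Cspg4 also separated from 3 of the other 4 precursor genes, Olig1, Olig2 and Sox10, and not from Pdgfra, with a ratio to Sox10 of 0.738, 0.801 and 0.853 in NTG and 0.466, 0.489 and 0.555 in 3xTg, and a ratio to Olig2 of 1.21, 1.23 and 1.08 against 0.862, 0.802 and 0.985. Separation was not limited to pairs of a precursor and a myelin gene. Among the precursor genes, 4 of 10 pairs did not overlap as deposited and 6 of 10 with the GC trend removed. Among the myelin genes, 5 of 6 pairs did not overlap as deposited but 2 of 6 with the GC trend removed. Mog over Mag, 1 of those 2, was 0.237, 0.224 and 0.221 in NTG and 0.266, 0.306 and 0.307 in 3xTg.

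**Figure D4:**
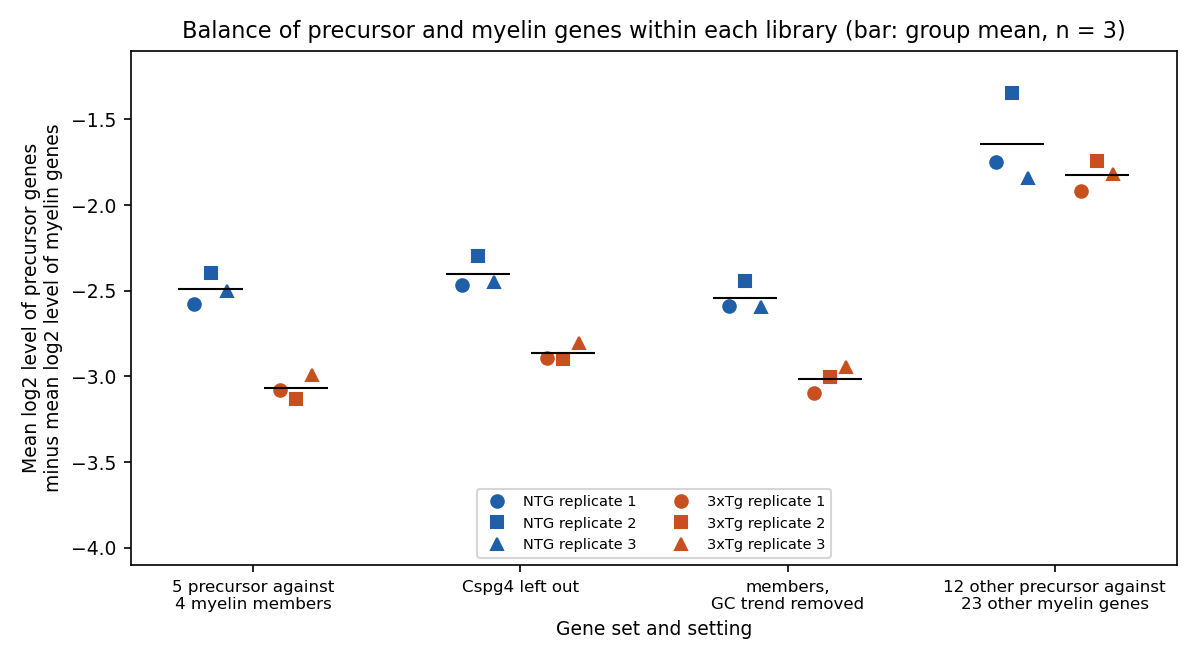
Mean log2 level of precursor genes minus that of myelin genes in each library, with a bar for each group mean (n = 3). The NTG libraries lie between -2.58 and -2.40 for the members and the 3xTg libraries between -3.13 and -2.99, and they stay apart without Cspg4 or with the GC trend removed, whereas the 12 other precursor and 23 other myelin genes overlap.

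The shift was not a property of every gene of these stages. For 12 other precursor genes and 23 other myelin genes, the same balance was -1.75, -1.35 and -1.84 in NTG and -1.92, -1.74 and -1.82 in 3xTg, and the groups overlapped. Of the 12 other precursor genes, Sox8 alone was called, a relative of Sox10 that acts with it in the lineage. It measured 8767, 9462 and 9296 normalised counts in NTG and 6189, 4763 and 5922 in 3xTg (log2 fold change -0.71, SE 0.12, limma adjusted p = 0.0132). Unlike the members, Sox8 was not low in NTG replicate 3. Its call was lost without 3xTg replicate 2, NTG replicate 1 or NTG replicate 2. The median over the 12 was -0.22, with 7 below 0 and 5 above.

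Of 9 genes of committed precursors and early differentiation none was called by limma, edgeR or DESeq2, none had an unadjusted limma p under 0.05, and the median log2 fold change was 0.18. Gpr17, a receptor of cells about to differentiate, measured 11944, 19823 and 3701 normalised counts in NTG and 15194, 16863 and 12604 in 3xTg (log2 fold change 0.63, SE 0.47). Itpr2, a calcium channel of the endoplasmic reticulum, measured 8447, 8403 and 6447 in NTG and 7701, 7287 and 5959 in 3xTg (log2 fold change -0.15, SE 0.14). Gpr17 repeated the low level of NTG replicate 3, and all its 3xTg values lay between those of NTG replicates 1 and 2.

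Of 23 other myelin genes none was called by limma or edgeR, and 2 were called lower by DESeq2 (Hapln2 and Ppp1r14a, named after their values were seen). By unadjusted limma p under 0.05, 2 were higher and 2 lower, against 23.5% of all tested genes in either direction. The median log2 fold change was 0.07. For 2 of the 23 every 3xTg library was above every NTG library and for 2 below, against 15.1% and 12.6% of all tested genes. The summed level of the 23 was 315178 to 592522 normalised counts in NTG and 594995 to 619873 in 3xTg. Every 3xTg library thus lay above every NTG library for this sum, by little over the highest NTG library. Trf, the iron carrier transferrin, measured 61401, 56680 and 44758 normalised counts in NTG and 47856, 58037 and 63127 in 3xTg, with overlapping groups.

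**Figure D5:**
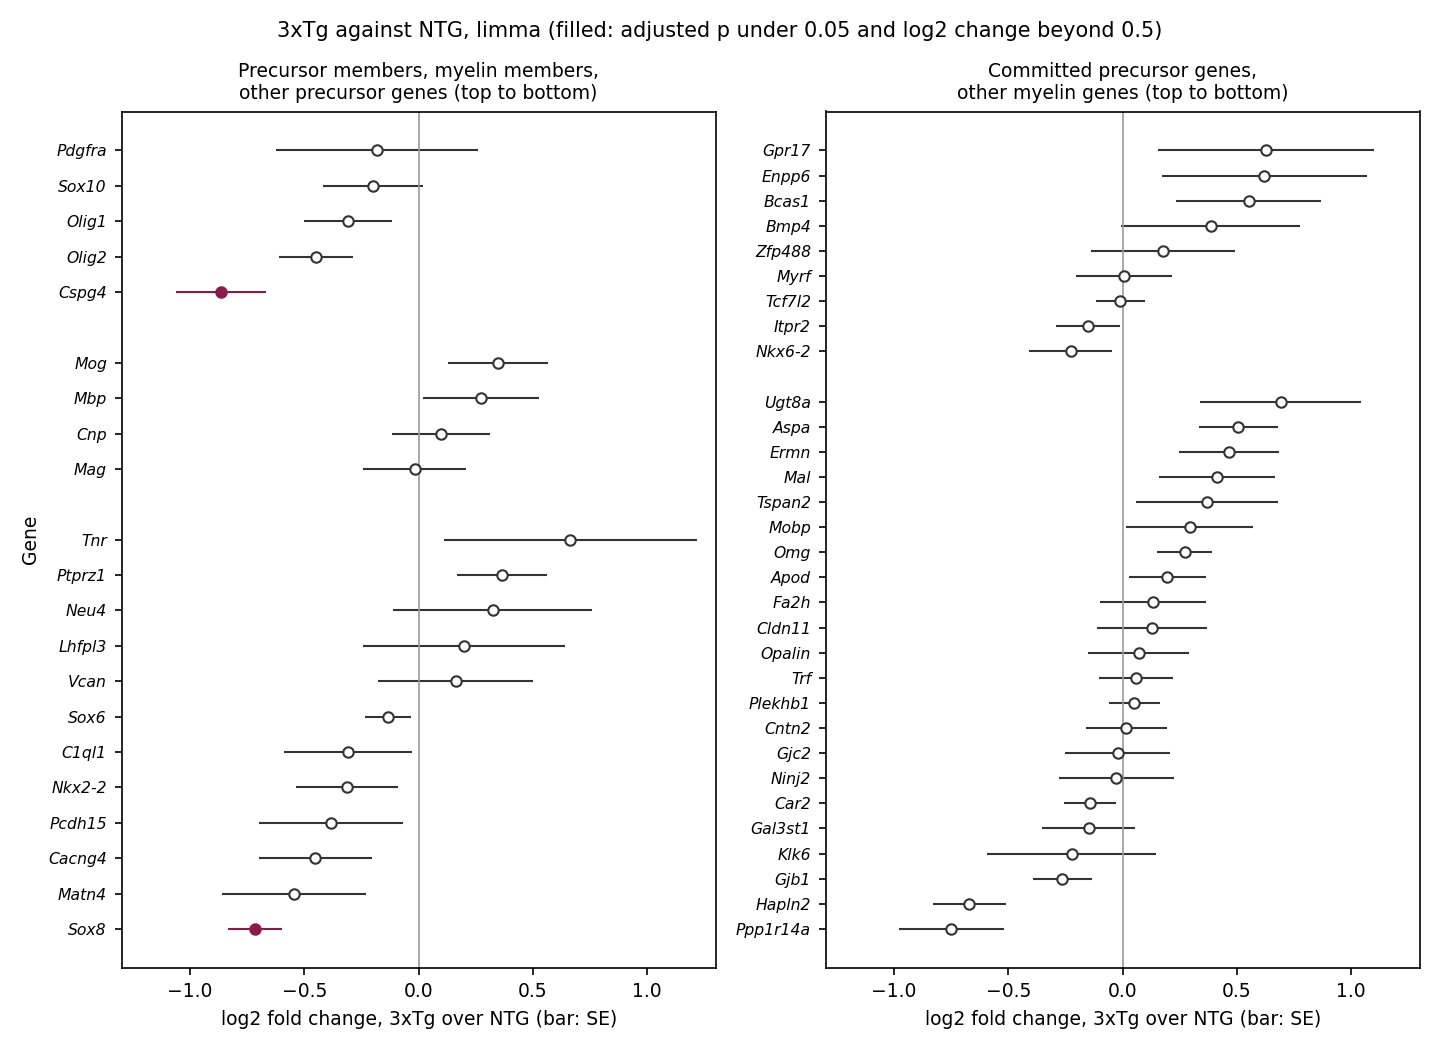
log2 fold change (3xTg over NTG) of the 9 members and of other genes of the lineage, with bars for the SE of limma's fit and filled points for called genes. Cspg4 at -0.87 and Sox8 at -0.71 are the called genes. Not every other myelin gene is shown.

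Genes that act on precursors were measured beside them. No gene of the PDGF system was called, by limma or by edgeR or DESeq2. At an unadjusted limma p under 0.05, 2 of 5 were lower, against 23.5% of all tested genes in either direction. Pdgfa, the ligand of the receptor Pdgfra, measured 1151, 1269 and 1213 normalised counts in NTG and 1270, 1002 and 1050 in 3xTg. Pdgfrb, the beta receptor, used by pericytes, measured 19388, 15763 and 15420 in NTG and 14358, 11286 and 11749 in 3xTg (log2 fold change -0.44, SE 0.13, limma adjusted p = 0.105), below the fold threshold although the groups did not overlap. Of 5 inhibitors of oligodendrocyte differentiation none was called by any of the 3 tools. At an unadjusted limma p under 0.05, 1 of the 5 was lower, against 23.5% of all tested genes in either direction. All 5 had a log2 fold change below 0, with a median of -0.28. Id2, which binds and blocks helix-loop-helix proteins, measured 16465, 16550 and 16793 in NTG and 12733, 14718 and 12955 in 3xTg (log2 fold change -0.30, SE 0.10, limma adjusted p = 0.125). Gpr37, a receptor that holds back the maturation of oligodendrocytes, measured 18443, 18362 and 14767 in NTG and 17617, 16047 and 15369 in 3xTg.

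All tested markers of vessel cells had a log2 fold change below 0, as Cspg4 had, and some were called lower. Of 12 pericyte and smooth muscle markers 11 were tested, with a median of -1.22. Of these, 2 were called lower, Rgs5, a regulator of G-protein signalling in pericytes (-1.18, limma adjusted p = 0.0223), and Higd1b (-1.55, limma adjusted p = 0.0482). Of the same 11, edgeR called 1 lower and DESeq2 called 3. By unadjusted limma p under 0.05, 9 of the 11 were lower, against 23.5% of all tested genes in either direction. For 8 of the 11, every 3xTg library was below every NTG library, against 12.6% of all tested genes. The summed level of the 12 markers was 42729, 33555 and 41571 normalised counts in NTG and 31205, 18332 and 18668 in 3xTg. None of the defining markers Pdgfrb, Rgs5 and Vtn was at 0. Cspg4 and the summed markers did not share the order of the libraries, since NTG replicate 2 was highest for Cspg4 and lowest among NTG for the sum. The single markers differed in this. Among NTG, Pdgfrb was lowest in replicate 3, as Cspg4 was, whereas Rgs5 and Vtn were lowest in replicate 2. The ratio of Cspg4 to Pdgfrb was 0.344, 0.548 and 0.308 in NTG and 0.274, 0.268 and 0.322 in 3xTg, and that to Vtn was 0.443, 0.772 and 0.265 against 0.349, 0.746 and 0.841. Both ratios overlapped between the groups, as did the ratio of Cspg4 to Pdgfra, while those to Olig1, Olig2 and Sox10 did not. The part of pericytes in the level of Cspg4 was not tested.

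Fibroblast markers, relevant to Pdgfra, summed to 2708, 2514 and 3084 normalised counts in NTG and 2393, 1383 and 1543 in 3xTg, with Mgp called lower (-1.83, limma adjusted p = 0.0411) of 6 tested. The part of fibroblasts in the level of Pdgfra was not tested. Of 10 endothelial markers 4 were called lower by limma, 2 by edgeR and 10 by DESeq2. All 10 were lower at an unadjusted limma p under 0.05, against 23.5% of all tested genes in either direction. For 9 of the 10, every 3xTg library was below every NTG library, against 12.6% of all tested genes. The limma calls were Tie1 (-1.39), Eng (-1.15) and Cldn5 (-1.29), with limma adjusted p values of 0.00944, 0.0351 and 0.0438, and Esam. Esam, also named after its values were seen, was not called with the GC trend removed. Of 9 microglial markers P2ry12 was called lower (-0.73, limma adjusted p = 0.0200). The 9 limma calls in these lists, Sox8 included, were all lost without 3xTg replicate 2 and all kept without 3xTg replicate 1. Of these calls, only Tie1 was kept without NTG replicate 1, Rgs5 and Tie1 without NTG replicate 2, and Sox8 and Tie1 without 3xTg replicate 3. Without NTG replicate 3, Sox8, Rgs5, Tie1 and P2ry12 were kept. No marker of mature neurons, neural stem cells, neuroblasts or astrocytes was called among 27 tested by limma or edgeR, while DESeq2 called 1 neuronal marker higher and 1 lower. Limma's unadjusted p was under 0.05 for 9 of the 27, against 23.5% of all tested genes. The log2 fold changes ranged from -1.11 to 0.65 for the neuronal markers, -0.41 to 0.33 for stem cells, -0.26 to 0.58 for neuroblasts and -0.26 to 0.20 for astrocytes. Sox2 (-0.41) and Hopx (-0.37), named here after their values were seen, measured less in every 3xTg library than in any NTG library, as were the summed neuronal markers, at 4371 to 4907 normalised counts against 4962 to 5859. The 2 most abundant genes of each list had log2 fold changes of 0.14 for Slc1a3 and 0.04 for Gfap (stem cells), 0.03 for Gja1 and 0.15 for Slc1a2 (astrocytes), -0.11 for Igfbpl1 and 0.28 for Sox11 (neuroblasts) and -0.22 for Snap25 and -0.24 for Rbfox3 (neurons).

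The genes whose profile was most like that of the members over the 6 libraries were found by Pearson's r with the mean log2 level of each group, among 13161 genes with a mean of at least 50. Nearest to the precursor genes were Snx30, Sez6l, Tubb4a, AI593442 and Plpp2, with r from 0.988 to 0.999. Nearest to the myelin genes were Cdyl, Cpm, Jam3, Gpatch8 and Tmem163, with r from 0.996 to 0.997. Snx30 measured 2671, 3130 and 1862 normalised counts in NTG and 2160, 1924 and 2117 in 3xTg, whereas Tmem163 measured 1360, 1641 and 447 in NTG and 1554, 1147 and 1167 in 3xTg. Both likenesses rest on libraries that share depth and GC trends by group, and on the low NTG replicate 3. Of the other myelin genes 6 of 23 were within the nearest 1% to the myelin profile, and of the other precursor genes 3 of 12 to the precursor profile. The members themselves had r with their own group's profile from 0.827 (Pdgfra) to 0.947 (Olig1) among precursor genes and from 0.950 (Mag) to 0.995 (Mbp) among myelin genes, each being part of that profile. With the profile of the other group, r was lowest for Cspg4 (0.232) and highest for Mag (0.850).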

How the data were processed

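Bulk RNA-seq of 3 NTG and 3 3xTg libraries was used (SMART-Seq V4, Nextera XT). Alignment by the authors used HISAT2 and GRCm38 (mm10), followed by featureCounts and by DESeq2 for normalisation. Their versions, the annotation and the strand setting are not given in the sources used here. The deposited signal values are counts divided by 1 size factor per library, and whole reads were recovered for 100% of values (within 0.01). The deposited mean, weight, fold change and p-value columns of the authors' own comparison were not used. The log2(normalised count + 1) of genes whose mean reached 10 was tested by limma 3.58.1 (R 4.3.3) with Benjamini-Hochberg adjustment, and fold changes are on that scale. edgeR 4.0.16 and DESeq2 1.42.0 were run on recovered reads. GENCODE M21 gave positions, exon lengths and GC content for 55230 genes and not for 241. The GC trend was removed per library by lowess (span 0.3). The limma code was tested on simulated data. Python 3.11.15 with pandas 2.3.3 and matplotlib 3.10.9 made the figures.

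The members, the 16 gene lists and the rules were chosen with earlier results of these data known. The balance of precursor and myelin genes and the ratios of gene pairs were not planned. They were added after the values of the members were seen. Named genes were the members, up to 3 called genes of each list by limma p or else the 2 with the highest mean, and the 5 most like each profile. Some genes that the rule names are not reported here. Hapln2, Ppp1r14a and Esam were added after their values were seen, as were the fold changes of Sox2 and Hopx. P-values measure the spread between these libraries. Alternatives were the added count (0.5 and 8), the filter (none and 50), TMM scaling, sample weights, the tool, removal of the GC trend, a replicate block, no fold threshold, the longest transcript and leaving out each library.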

Additional observations from a re-analysis of the deposited data

How the results depend on the processing

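No alternative turned the direction of a called result. The count of called genes over all genes tested was 522, against 1327 by DESeq2 and 2604 with sample weights, and from 163 to 2030 when each library was left out. The count of called precursor genes, 1 as reported, was 0 with a mean of at least 50, 0 with the GC trend removed, 2 with sample weights and 0 to 2 when each library was left out, and the 0 values without a library came with 1 fewer sample. No myelin gene was called in any of the 18 settings. The count of called genes in the other lists was 9, against 5 by edgeR, 22 by DESeq2, 42 with sample weights, and 0 to 33 when each library was left out. The order of levels per length kept 7 of 9 ranks with the longest transcript.

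Replicate numbers are shared by the groups, but libraries with the same number had correlations of 0.06, 0.20 and 0.04 after the group means were removed, and NTG replicate 3 correlated best with 3xTg replicate 1 (0.11). The numbers were therefore not taken as pairs. With a replicate block 752 genes were called, 1 of them a precursor gene (Cspg4, limma adjusted p = 0.0332) and 20 in the other lists. With the block and the GC trend removed, 0 precursor genes and 19 genes of the other lists were called. Where a setting moved a count, the cause was not tested.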
